A study of Mus musculus with 10 samples.

Results

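The Trim genes encode tripartite motif proteins, and 58 of the 19935 genes measured belonged to the family. A member was any gene whose platform symbol is Trim followed by digits and at most 1 letter and that had a probe set naming only that gene. Each of the 58 had 1 such probe set. The livers of 12-week-old NML-KO mice (5 animals) and WT mice (5 animals) were compared, with total RNA of each liver on 1 whole-transcript array. The NML-KO mice lack nucleomethylin (NML), a protein of the nucleolus that Rrp8 encodes and that helps to silence ribosomal DNA. The labels used here give neither strain, sex, the hour of dissection nor the part of Rrp8 removed. No treatment is labelled.

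Tripartite motif proteins carry a RING finger, B-box domains and a coiled coil, and many are ubiquitin ligases. A run of closely related genes with a B30.2 domain, the relatives of the retroviral restriction factor Trim5, lies on mouse chromosome 7, and several of them are switched on by type I interferon. Rrp8 is on the same chromosome. Of the 58 members, 8 had at most 200 annotated genes between themselves and Rrp8. These were Trim6 (93 genes between), Trim34a (91), Trim12a (87), Trim12c (83), Trim30a (78), Trim30d (76) and Trim3 (5) on 1 side, and Trim66 (136) on the other. They are called the cluster here. Just outside this limit were Trim68 (214 genes between) and Trim21 (224), and Trim28 and Trim72 lie farther away on chromosome 7. Trim5, Trim30b, Trim30c and Trim34b lacked such a probe set and are not among the 58.

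The starts of Trim12a and Trim30d are shown because these members had the widest differences between the genotypes. Both sequences are RefSeq promoter windows (assembly GRCm38.p6) that run from 250 bases before to 50 bases after the start of the gene, 5′ to 3′ in the direction of the gene. Trim12a is at chr7:104315446-104315745 on the minus strand, and Trim30d at chr7:104507800-104508099 on the minus strand. Capitals mark a motif of GAAA, any 2 bases and GAAA again, on either strand, which is the core of the element through which interferon acts on its target genes.
Trim12a: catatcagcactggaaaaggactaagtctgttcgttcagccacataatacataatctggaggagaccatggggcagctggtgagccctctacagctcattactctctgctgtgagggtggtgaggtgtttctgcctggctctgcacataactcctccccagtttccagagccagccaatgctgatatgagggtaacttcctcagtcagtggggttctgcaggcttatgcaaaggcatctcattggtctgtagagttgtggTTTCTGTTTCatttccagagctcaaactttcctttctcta
Trim30d: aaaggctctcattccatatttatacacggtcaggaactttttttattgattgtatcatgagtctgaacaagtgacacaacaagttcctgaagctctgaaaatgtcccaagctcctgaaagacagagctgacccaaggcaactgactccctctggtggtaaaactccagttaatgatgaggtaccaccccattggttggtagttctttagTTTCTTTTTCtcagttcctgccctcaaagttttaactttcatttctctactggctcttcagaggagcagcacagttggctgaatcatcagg
The motif lay 11 to 20 bases after the start in Trim12a and 41 to 32 bases before it in Trim30d, in both on the strand opposite to the gene, so that it reads TTTC, any 2 bases and TTTC here. Of all 32851 promoter windows, 1131 (3.44%) held this motif, which is 1079 of the 27025 genes with a window (3.99%). Of the 46 members with a window, 8 held it (17.4%). In the cluster it was found in 5 of 7 genes with a window (Trim12a, Trim12c, Trim30a, Trim30d and Trim34a) and not in those of Trim6 and Trim66. Elsewhere in the family it was found in 3 of 39 (Trim2, Trim21 and Trim26). A match is only a description of these letters and does not show a bound site, and the windows were not part of the measurement.

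The next stretches, of 30 bases each, are shown so that neighbouring cluster genes can be set side by side at the motif, with its match again in capitals. They lie on the minus strand at chr7:104315466-104315495 (Trim12a), chr7:104353359-104353388 (Trim12c), chr7:104446104-104446133 and chr7:104465210-104465239 (2 starts of Trim30a, in that order) and chr7:104507871-104507900 (Trim30d), and on the plus strand at chr7:104244457-104244486 (Trim34a).
Trim12a: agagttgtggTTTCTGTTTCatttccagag
Trim12c: agagttgtggTTTCTGTTTCatttccagct
Trim30a, first start: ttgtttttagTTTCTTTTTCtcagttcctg
Trim30a, second start: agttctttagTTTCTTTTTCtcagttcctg
Trim30d: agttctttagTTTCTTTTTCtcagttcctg
Trim34a: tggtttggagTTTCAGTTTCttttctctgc
Trim12a and Trim12c share the match and all bases before it. The stretch at the second start of Trim30a is the same, letter for letter, as that of Trim30d. Over the whole 300-base windows, Trim30d was 90.8% identical to that window of Trim30a, and Trim12a was 72.7% identical to Trim12c (gaps counted as differences). Of the bases that aligned, 277 of 295 were identical in the Trim30 pair (10 gaps) and 247 of 260 in the Trim12 pair (80 gaps). The match begins 11 bases after the start in Trim12a and 29 before it in Trim12c, so the 2 windows are shifted. The lower percentage of the Trim12 pair therefore does not show that these genes are less alike. Such near copies may share array probes, and the probe sequences were not used here, so the values of Trim12a, Trim12c, Trim30a and Trim30d are uncertain in that respect.

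The tissue label was checked first. All 8 hepatocyte markers listed (such as Alb and Apoa1) were measured, and their mean stood 7.19 to 7.26 log2 units above the mean of all genes in NML-KO livers and 7.16 to 7.30 in WT livers. Median intensities were 62.5 to 66.7. Rrp8 itself was lower in NML-KO livers, at 6.99, 6.78, 6.65, 7.19 and 6.75 on the log2 scale against 7.90, 7.66, 7.83, 7.70 and 7.65 in WT livers, without overlap (exact permutation test, two-sided p = 0.0079, the smallest that 5 against 5 livers allow). The livers also fell into 2 sets by Dbp, a transcription factor that the circadian clock drives. Dbp read 9.68 to 10.23 in NML-KO 1 to 3 and WT 1 and 2, called Dbp-high livers, and 6.20 to 6.60 in NML-KO 4 and 5 and WT 3 to 5, called Dbp-low livers. Arntl, a clock activator, differed the other way, by -2.39 between Dbp-high and Dbp-low livers. This split was read from the data and is not a label of the study.

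Over all livers, no Trim gene and no other gene passed limma's threshold, a Benjamini-Hochberg adjusted p of 0.05, for NML-KO against WT (0 of 19935 genes, 0%). Even Rrp8 did not pass, with an adjusted p of 0.109 by limma and the NML-KO signal at 54.5% of the WT signal. The widest differences in the family were those of Trim12a and Trim30d, 2 genes of the cluster that were lower in NML-KO livers. At an unadjusted p below 0.05 stood 4 of 58 members (6.90%), against 2.70% of all genes. Of these, 3 were among the 8 cluster genes (Trim12a, Trim30d and Trim3, all lower, as were 1.66% of all genes at such a p) and 1 was among the 50 others (Trim68, higher, as were 1.05%). No member had NML-KO and WT livers without overlap, which 0.406% of all genes had. In bulk liver, fewer cells that express a gene and less RNA per cell cannot be told apart.

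Trim12a, whose product resembles Trim5 and whose own function is little described, had log2 intensities of 5.50, 5.26, 5.46, 4.98 and 4.65 in NML-KO 1 to 5, against 5.41, 6.44, 5.89, 6.13 and 6.09 in WT 1 to 5. All NML-KO livers read below WT 2 to 5, and WT 1 alone lay within the NML-KO range. The means were 5.17 ± 0.36 in NML-KO livers and 5.99 ± 0.38 in WT livers (SD, n = 5 each), a difference of -0.82 (SE 0.21, 95% confidence interval -1.28 to -0.36). The NML-KO signal stood at 56.6% of the WT signal. By limma the unadjusted p was 0.0026 and the adjusted p 0.9995.

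Trim30d, a near copy of Trim30a, read 6.05, 6.01, 6.27, 5.50 and 5.24 in NML-KO livers, against 6.14, 6.49, 6.54, 7.05 and 6.83 in WT livers. NML-KO 3 lay above WT 1, and the other 4 NML-KO livers read lower than any WT liver. The difference was -0.80 (SE 0.22, 95% confidence interval -1.29 to -0.31), with 5.81 ± 0.43 in NML-KO livers and 6.61 ± 0.35 in WT livers (SD, n = 5 each). The NML-KO signal stood at 57.5% of the WT signal. Its unadjusted p was 0.0045 and its adjusted p 0.9995 by limma. Trim30d had the widest range over the 10 livers of any member, 1.81 log2 units, against a median range of 0.48 over the family.

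Trim3, the member nearest to Rrp8, belongs to another branch, with NHL repeats in place of the B30.2 domain. It read 7.81, 8.11, 7.97, 8.26 and 7.88 in NML-KO livers, against 8.23, 8.38, 8.15, 8.07 and 8.30 in WT livers. The groups overlapped, since NML-KO 4 lay above WT 1, WT 3 and WT 4, and NML-KO 2 lay above WT 4. The difference was -0.22 (SE 0.09, unadjusted p = 0.038, adjusted p = 0.9995 by limma).

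The other 5 cluster genes had differences from -0.04 to 0.13 over all livers. Trim30a, which in mice restrains Toll-like receptor signalling, read 7.64, 7.41, 7.77, 7.87 and 7.65 in NML-KO livers and 7.14, 7.93, 7.70, 8.04 and 7.73 in WT livers, and its groups overlapped fully (difference -0.04). Trim12c, which in mice promotes interferon production with the ligase Traf6, read 5.24, 4.93, 5.30, 6.02 and 5.97 in NML-KO livers and 5.72, 4.96, 5.54, 5.48 and 5.56 in WT livers (difference 0.04). NML-KO livers were thus both lowest and highest in Trim12c. Trim6, whose human counterpart makes free ubiquitin chains in interferon signalling, read 4.96, 4.94, 4.98, 5.31 and 5.26 in NML-KO livers and 5.06, 4.99, 4.96, 4.91 and 4.88 in WT livers (difference 0.13). Trim34a stayed between 5.85 and 6.15, and Trim66, a nuclear co-repressor found mainly in testis, between 5.48 and 5.80.

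**Figure D1:**
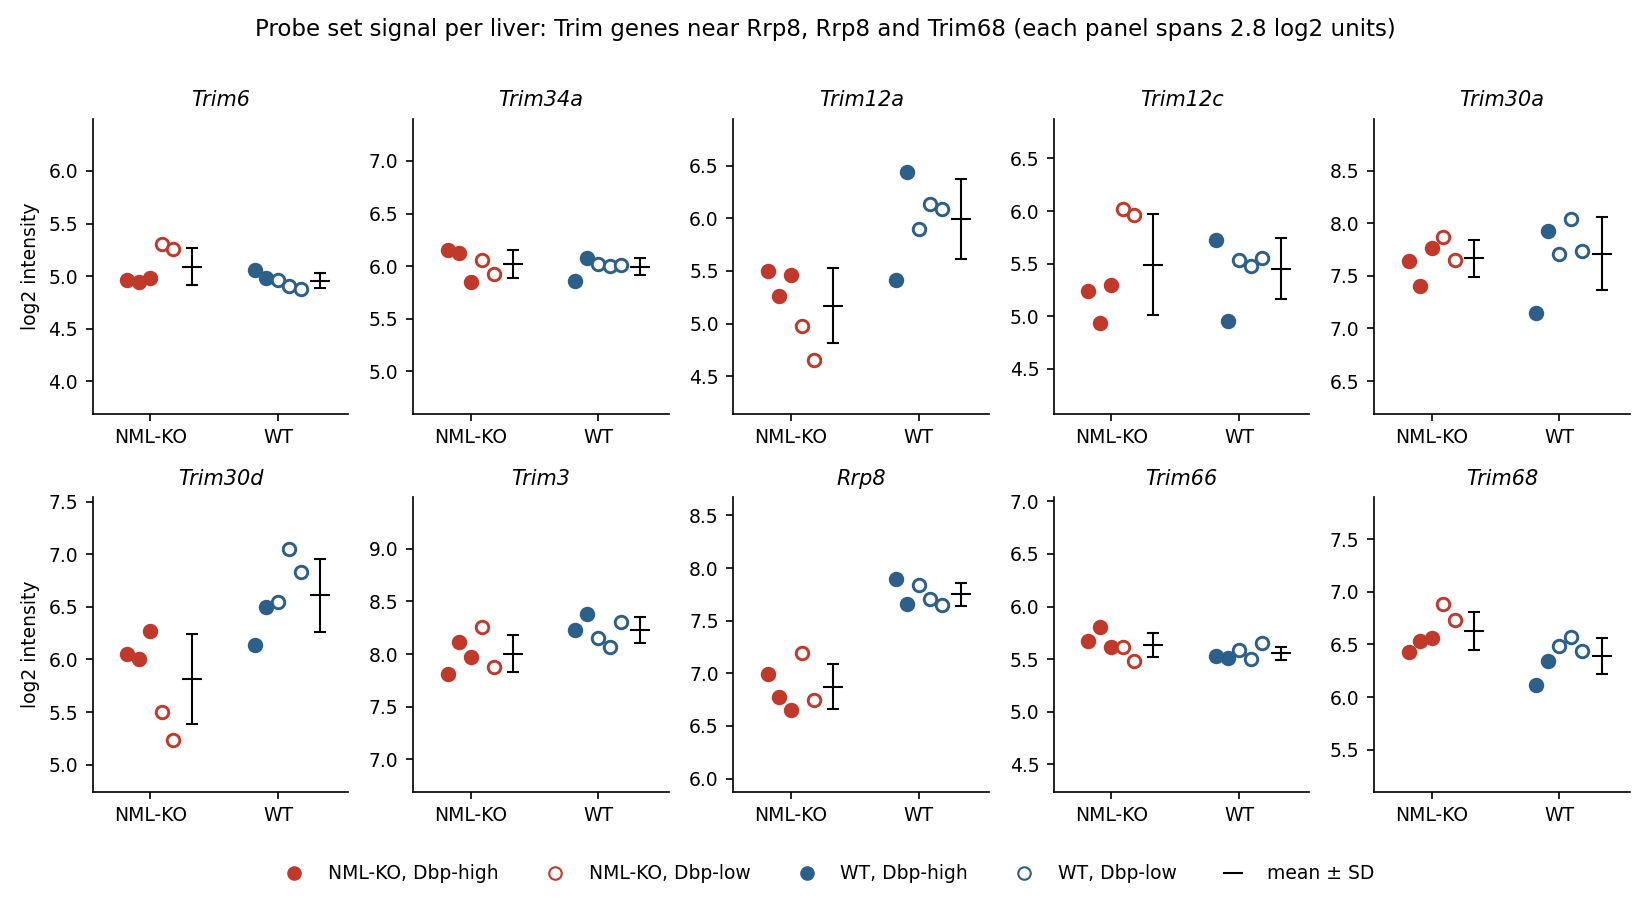
Log2 intensity of the 8 Trim genes of the cluster, of Rrp8 and of Trim68 in each liver, with NML-KO left and WT right in each panel. Points are livers, filled for Dbp-high and open for Dbp-low, and bars are the mean ± SD of 5 livers; in Trim12a and Trim30d the 2 open NML-KO points lie lowest, at 4.98 and 4.65 and at 5.50 and 5.24.

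As a group, the cluster was split in direction. Of its 8 genes 4 were lower and 4 higher in NML-KO livers, with a median difference of -0.0081, against -0.023 over the 50 other members and -0.0065 over all genes. Among the others 27 of 50 were lower, and over all genes 10650 of 19935. By size, an absolute difference above 0.2 was reached by 3 of 8 cluster genes, 3 of 50 other members and 8.01% of all genes. The median absolute difference was 0.105 in the cluster, 0.056 in the other members and 0.059 over all genes. Near copies share sequence, so these genes are not independent of each other.

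Along the chromosome, 237 measured genes had at most 200 genes between themselves and Rrp8, of which 229 were no Trim genes and 158 of those were olfactory receptors. Of the 229, 4 (1.75%) had an unadjusted p below 0.05 over all livers, against 2.70% of all genes. They were Olfr646, Cavin3, Gm1966 and Ppfibp2. The median difference over the 229 was -0.0072. Gm1966, a predicted gene with 18 genes between itself and Rrp8, differed by -0.72 (SE 0.19), a size near that of Trim12a and Trim30d.

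**Figure D2:**
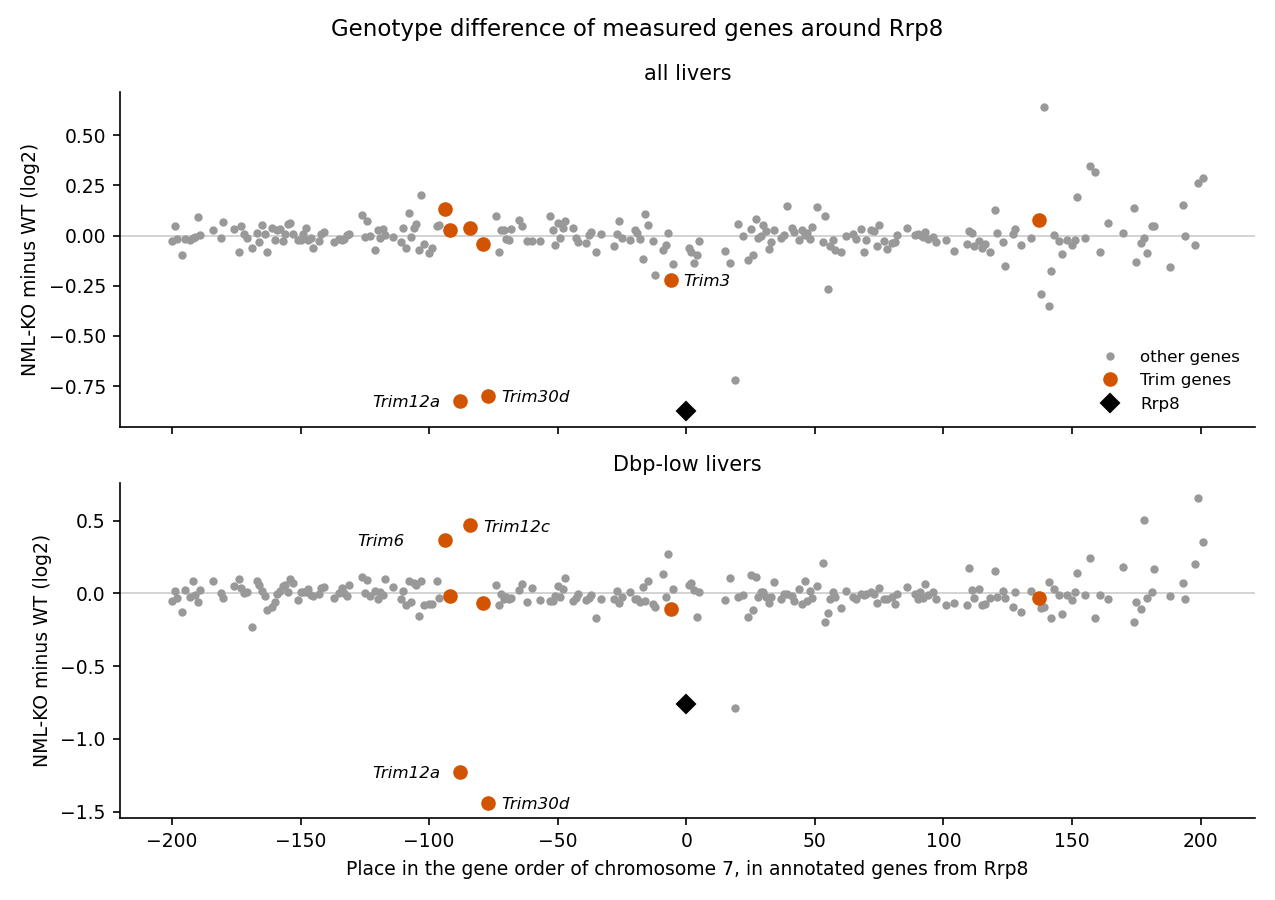
Difference of log2 intensity, NML-KO minus WT, of each measured gene around Rrp8 (black diamond) against its place in the gene order of chromosome 7, for all livers above and for Dbp-low livers below. Orange points are the 8 Trim genes and grey points the 229 other genes; Trim12a and Trim30d lie at -0.82 and -0.80 above and at -1.22 and -1.44 below, while Trim12c and Trim6 lie above 0 in the lower panel.

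Within the Dbp-low livers Trim12a and Trim30d differed by more than 1 log2 unit between genotypes. Trim30d read 5.50 and 5.24 in NML-KO 4 and 5, against 6.54, 7.05 and 6.83 in WT 3 to 5. The difference was -1.44 (SE 0.17, 95% confidence interval -1.82 to -1.05), which puts the NML-KO signal at 36.9% of the WT signal, with an adjusted p of 0.157 by limma, so it did not pass the threshold. Trim12a read 4.98 and 4.65 in NML-KO livers, against 5.89, 6.13 and 6.09 in WT livers, a difference of -1.22 (SE 0.25) that puts it at 42.8% of the WT signal (unadjusted p = 0.0010, adjusted p = 0.9999). In both genes the NML-KO livers lay below the WT livers without overlap.

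In the same livers Trim6 and Trim12c lay the other way. Trim6 read 5.31 and 5.26 in NML-KO livers, against 4.96, 4.91 and 4.88 in WT livers (difference 0.37, SE 0.06, unadjusted p = 0.0003, adjusted p = 0.826 by limma). Trim12c read 6.02 and 5.97 in NML-KO livers, against 5.54, 5.48 and 5.56 in WT livers (difference 0.47, SE 0.20, unadjusted p = 0.042, adjusted p = 0.9999). Neither pair of groups overlapped. In all of these livers both genes read below the mean of the median gene (6.22), and no background was measured to tell whether they were detected. The other 4 cluster genes, Trim3, Trim30a, Trim34a and Trim66, had small negative differences, between -0.11 and -0.02.

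Counted over the family, 6 of 58 members had an unadjusted p below 0.05 within Dbp-low livers, against 2.24% of all genes, and none of the 19935 genes passed the adjusted threshold. The cluster held 4 of the 6 (Trim12a, Trim30d, Trim12c and Trim6) and the others were Trim13, lower, and Trim68, higher. The 2 genotypes did not overlap in 14 of 58 members, against 19.0% of all genes: 7 were higher in NML-KO livers (8.06% of all genes) and 7 lower (10.9%). Of the other 229 genes around Rrp8, 3 (1.31%) had an unadjusted p below 0.05 here.

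Within the Dbp-high livers both genes overlapped between the genotypes. Trim30d read 6.05, 6.01 and 6.27 in NML-KO 1 to 3, against 6.14 and 6.49 in WT 1 and 2, a difference of -0.21 (SE 0.17, 95% confidence interval -0.59 to 0.18). It was -0.38 without WT 1 and -0.028 without WT 2. Trim12a read 5.50, 5.26 and 5.46 in NML-KO livers, against 5.41 and 6.44 in WT livers, a difference of -0.52 (SE 0.25). The 2 WT livers lay over 1 log2 unit apart in Trim12a, and the difference was -1.03 without WT 1 and -0.0030 without WT 2.

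In Dbp-high livers 5 of 58 members had an unadjusted p below 0.05, against 10.2% of all genes, and no gene passed the adjusted threshold. Trim3 was the only cluster gene among them, at -0.34 (SE 0.13). Trim13, an endoplasmic reticulum ligase, was higher (0.31) and so was Trim68 (0.28), a B30.2 relative that in human cells acts on the androgen receptor. Trim38 (-0.31) and Trim8 (-0.32), which tune inflammatory signalling, were lower. The genotypes did not overlap in 8 of 58 members here, against 20.5% of all genes.

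**Figure D3:**
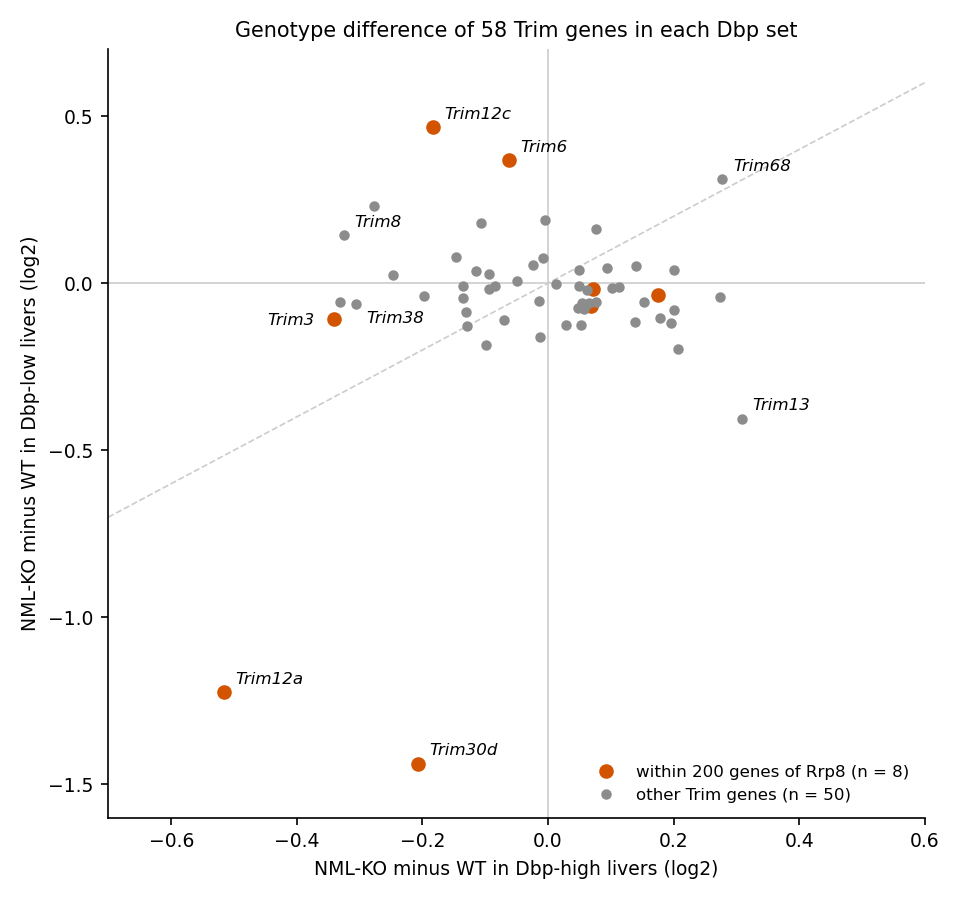
Difference of log2 intensity, NML-KO minus WT, of each of the 58 Trim genes in Dbp-high livers (horizontal axis) and Dbp-low livers (vertical axis). Orange points are the 8 cluster genes, grey points the 50 others, and the dashed line marks equal differences; Trim30d lies at -0.21 and -1.44, Trim13 at 0.31 and -0.41, and Trim68 near the line at 0.28 and 0.31.

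The difference between the sets was tested itself, as the genotype difference in Dbp-high minus that in Dbp-low livers. By limma no gene passed the adjusted threshold, and 5 of 58 members had an unadjusted p below 0.05, against 6.49% of all genes. Trim30d gave 1.23 (SE 0.24, unadjusted p = 0.0007), Trim13 gave 0.71 (unadjusted p = 0.0011) and Trim6 gave -0.43 (unadjusted p = 0.0011). Trim12c and Trim8 were the others, at -0.65 and -0.47. For these 5 genes the adjusted p was 0.717 or more. For Trim12a the difference between the sets was 0.71 (SE 0.36, 95% confidence interval -0.10 to 1.52, unadjusted p = 0.080), so a wider gap in Dbp-low livers was not detectable for that gene.

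With the Dbp set as a term, the genotype differences of Trim12a and Trim30d were -0.87 (SE 0.20) and -0.82 (SE 0.23). In that fit 5 of 58 members had an unadjusted p below 0.05, against 4.36% of all genes, and none passed the adjusted threshold (limma, 0 of 19935 genes). For Trim12a the call turned on WT 1, without which the difference was -1.15 and the adjusted p 0.0287 by limma, the only member past the threshold in that setting. Trim68 had the smallest unadjusted p of the 5, 0.0008, at 0.29 (SE 0.06).

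Trim68 was the only member with an unadjusted p below 0.05 for genotype over all livers, within each set and with the set as a term. It read 6.43, 6.53, 6.57, 6.88 and 6.74 in NML-KO livers, against 6.12, 6.35, 6.49, 6.57 and 6.44 in WT livers. Over all livers the groups overlapped, and within each set they did not, since NML-KO 1 to 3 lay above WT 1 and 2 and NML-KO 4 and 5 above WT 3 to 5. Its difference over all livers was 0.24 (SE 0.10, unadjusted p = 0.045, adjusted p = 0.9995 by limma).

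Trim12a and Trim30d ran together across the livers. Pearson's r between them was 0.91 over 10 livers (Spearman's rho 0.89), and each was the nearest of 19934 genes to the other. This is a description: both genes were read from the same arrays, both read lower on average in NML-KO livers, and shared probes were not checked. For Trim12a the next nearest were Gm1966 (r 0.88) and Sun3 (0.87, on chromosome 11), a nuclear envelope gene of sperm cells. For Trim30d they were the olfactory receptor genes Olfr1115 (0.89) and Olfr1279 (0.88), both on chromosome 2. Sun3, Olfr1115 and Olfr1279 were dim and nearly flat, with means of 4.63, 4.53 and 4.99 and ranges of 0.21, 0.083 and 0.26 log2 units over the 10 livers. Their correlations therefore rest on very small differences. Rrp8 ranked 159 for Trim12a (r 0.66) and 184 for Trim30d (r 0.62).

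**Figure D4:**
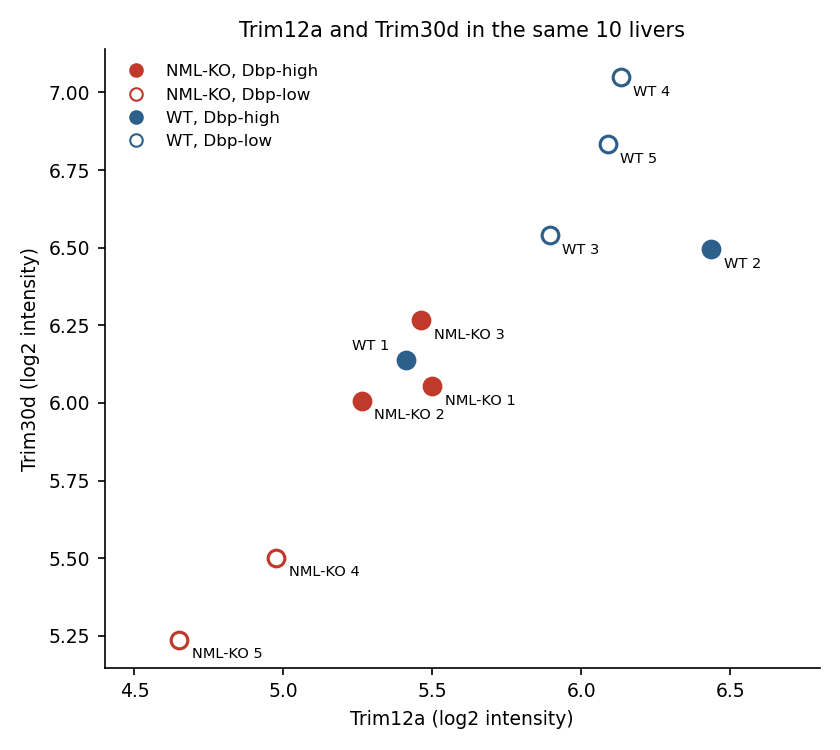
Log2 intensity of Trim30d (vertical axis) against Trim12a (horizontal axis) in each of the 10 livers, red for NML-KO and blue for WT, filled for Dbp-high and open for Dbp-low. NML-KO 4 and 5 are at the lower left, WT 3 to 5 and WT 2 at the upper right, and WT 1 lies among NML-KO 1 to 3.

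Because several cluster genes respond to interferon, a list of 39 interferon-stimulated genes outside the family was read beside them, of which 35 were measured. No listed gene passed the adjusted threshold for genotype over all livers (limma) and 3 of 35 (8.57%) had an unadjusted p below 0.05, all lower, against 1.66% of all genes. In all, 32 of 35 (91.4%) were lower in NML-KO livers, against 53.4% of all genes, and the median difference was -0.20. The 2 with the smallest unadjusted p were Bst2, which tethers budding viruses, at -0.43 (SE 0.17), and Mx2, an antiviral GTPase, at -0.35 (SE 0.15). With the Dbp set as a term the list's median was -0.14, and Bst2 and Mx2 were at -0.34 (SE 0.12) and -0.32 (SE 0.14). Within Dbp-high livers the list's median was -0.20 and within Dbp-low livers -0.03, where Trim12a and Trim30d had their widest differences. The list's mean stood 0.18 to 0.94 log2 units above the mean of all genes in NML-KO livers and 0.50 to 0.91 in WT livers. All 10 Kupffer cell and macrophage markers listed were measured, and their mean stood 0.88 to 2.22 above it in NML-KO livers and 0.96 to 1.97 in WT livers, with median differences of -0.14 within Dbp-high and 0.15 within Dbp-low livers. Of 4 B cell markers 3 were measured, with median differences of 0.02 within Dbp-high and -0.26 within Dbp-low livers. Their mean ran from -1.62 to -1.24 relative to that of all genes in NML-KO livers and from -1.57 to -1.14 in WT livers. Within Dbp-low livers both NML-KO livers were below all WT livers in it. The part of these cells and of interferon in the Trim values was not tested.

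The other members were read by role. Of 11 members with a place in innate immune signalling, none had an unadjusted p below 0.05 over all livers, against 2.70% of all genes. Such a share leaves little room for a call among 11 genes. Of the 11, 8 were lower, as most genes were, and the median difference was -0.04, against -0.0065 over all genes. The highest difference among them was that of Trim56, which acts in sensing of foreign DNA, at 0.20 (SE 0.20). With the Dbp set as a term its difference was 0.09 (SE 0.10), and it also differed between the sets, as its values further on show. Trim14, a mitochondrial adaptor without a RING finger, read 8.64, 8.56, 9.03, 9.24 and 9.19 in NML-KO livers and 9.20, 8.51, 9.30, 9.25 and 8.98 in WT livers. Trim25, the ligase that activates the RNA sensor RIG-I, read 9.07, 8.58, 8.58, 8.75 and 8.81 in NML-KO livers and 9.06, 8.71, 8.63, 8.76 and 8.72 in WT livers. Both overlapped fully between genotypes, at -0.12 (SE 0.18) and -0.02 (SE 0.11).

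The 4 nuclear co-regulators (Trim24, Trim28, Trim33 and Trim66) had a median difference of 0.05, and Trim28, the co-repressor of KRAB zinc finger proteins, read 8.08 ± 0.13 in NML-KO livers and 8.17 ± 0.18 in WT livers (SD, n = 5 each). All 4 members with NHL repeats (Trim2, Trim3, Trim32 and Trim71) had lower means in NML-KO livers over all livers, as most genes did. Their median was -0.10, against -0.0065 over all genes. With the Dbp set as a term Trim2 was at 0.12 and Trim32 at 0.01, and the median was -0.03. Trim3 alone had an unadjusted p below 0.05 in these fits. The 8 members known mainly from muscle or for a microtubule-binding COS box had a median of 0.03 and differences from -0.11 to 0.07. Skeletal muscle markers were at the low end, with a mean of -0.89 to -0.71 log2 units relative to that of all genes in NML-KO livers and of -0.91 to -0.84 in WT livers. Trim10 and Trim58, which are known from red cell precursors, both differed by 0.02.

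Between Dbp-high and Dbp-low livers, with genotype as a term, Trim genes did pass the threshold. Of 58 members, 6 (10.3%) had an adjusted p below 0.05 by limma, against 12.9% of all genes (2573 genes). Trim2, Trim13, Trim68, Trim37 and Trim65 were lower in Dbp-high livers, as were 7.99% of all genes, and Trim56 was higher, as were 4.92%. None of the 8 cluster genes was among them. The sets did not overlap in 4 members (Trim2, Trim13, Trim37 and Trim56), against 12.2% of all genes. As the livers were sorted after their values had been seen, these p-values describe sorted livers.

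Trim2, a ligase for neurofilament light chain in neurons, read 6.79, 6.49, 6.65, 6.27 and 6.46 in Dbp-high livers (NML-KO 1 to 3, WT 1 and 2), against 7.55, 7.89, 7.71, 7.86 and 7.73 in Dbp-low livers (NML-KO 4 and 5, WT 3 to 5). The sets did not overlap, and the difference was -1.24 (SE 0.10, adjusted p = 0.0001 by limma), or 2.36-fold lower in Dbp-high livers. Trim13 read 5.68, 5.47, 5.80, 5.29 and 5.39 in Dbp-high livers, against 6.04, 5.98, 6.34, 6.54 and 6.37 in Dbp-low livers, a difference of -0.72 (SE 0.13, adjusted p = 0.0076). Its sets did not overlap either, and within Dbp-low livers both NML-KO livers lay below the 3 WT livers.

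Trim56 read 8.81, 8.93, 8.71, 8.66 and 8.98 in Dbp-high livers, against 8.51, 8.19, 8.31, 8.08 and 8.09 in Dbp-low livers, a difference of 0.56 (SE 0.10, adjusted p = 0.0047 by limma). All Dbp-high livers lay above all Dbp-low livers. Trim68 differed by -0.28 (SE 0.06, adjusted p = 0.0156), where its genotypes also stood apart within each set. Trim37, a ligase of peroxisomes and centrioles, read 7.40, 7.18, 7.34, 7.06 and 7.36 in Dbp-high livers, against 7.49, 7.60, 7.46, 7.54 and 7.48 in Dbp-low livers, a difference of -0.26 (adjusted p = 0.0389). Trim65, which acts on the RNA sensor MDA5, read 6.88, 6.86, 7.04, 6.96 and 6.74 in Dbp-high livers, against 7.24, 7.18, 7.09, 7.12 and 6.93 in Dbp-low livers, a difference of -0.24 (adjusted p = 0.0452). The sets of Trim65 overlapped through WT 5. Both of these calls were near the threshold: that of Trim37 was lost without any 1 of 8 livers and that of Trim65 without any 1 of 7. Under quantile normalization their adjusted p was 0.0683 and 0.0688, and with a trended and robust prior in limma 0.0766 and 0.0952. The call of Trim65 was also lost under median centring (0.0687) and without dim genes (0.0509).

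**Figure D5:**
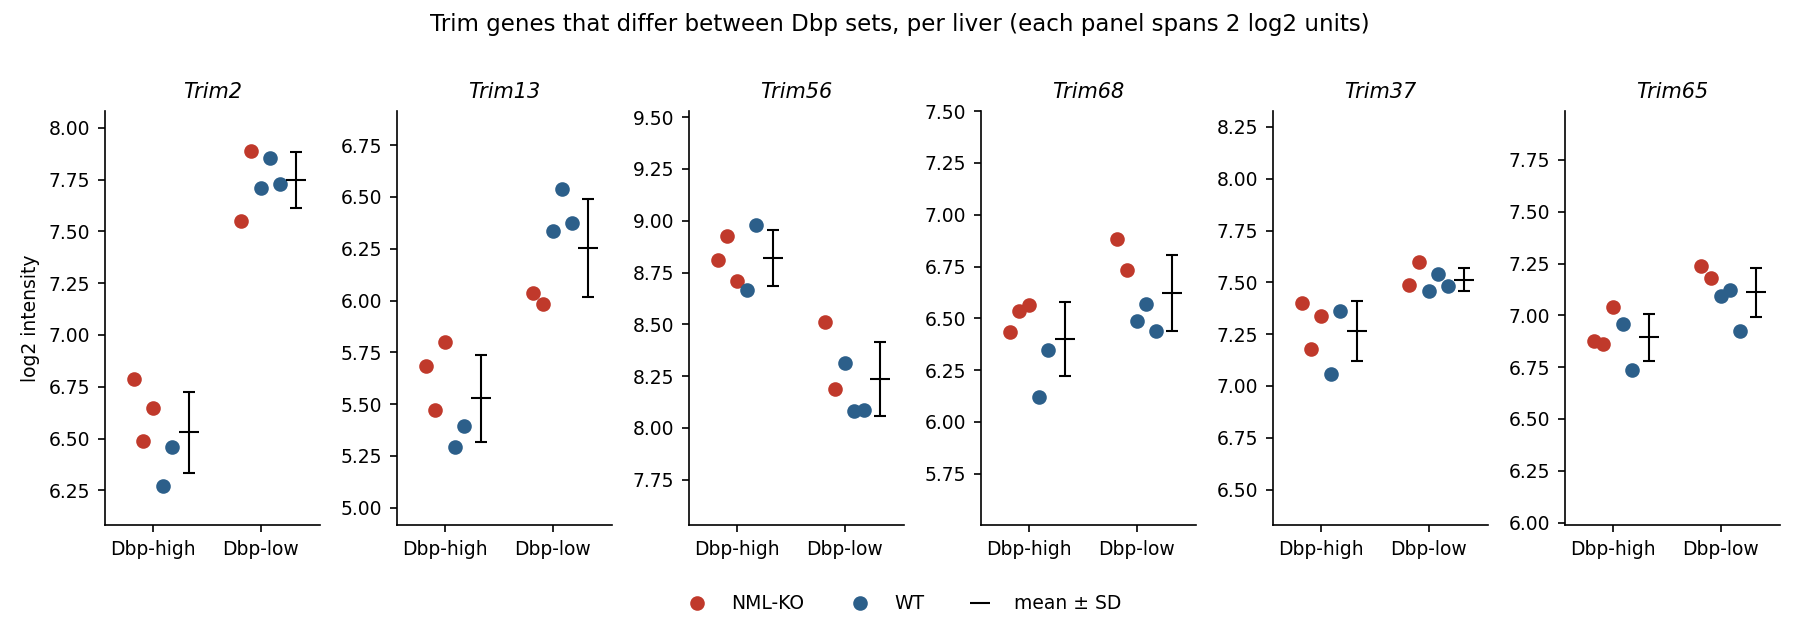
Log2 intensity of the 6 Trim genes that differed between the sets, in Dbp-high livers (left in each panel) and Dbp-low livers (right), with NML-KO in red and WT in blue. Bars are the mean ± SD of 5 livers; Trim2 shows the widest gap, at 6.27 to 6.79 against 7.55 to 7.89, and Trim56 runs the other way.

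Of the interferon list, 13 of 35 genes (37.1%) fell in Dbp-high relative to Dbp-low livers (adjusted p below 0.05 by limma), against 7.99% of all genes, and the median difference was -0.39. The Kupffer cell and macrophage markers had a median of -0.54 in the same comparison. Their part in the differences of Trim2, Trim13 and the others was not tested.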

How the data were processed

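Total RNA of 10 livers, 5 NML-KO and 5 WT as the titles name them, was labelled with biotin and read on whole-transcript arrays. The authors deposited linear intensity values, from 18.4 to 29834, of 28815 probe sets per array. The submitters' processing notes name the build mm8; background correction, normalization and summarization were not given in the sources used. Any background left in the values would shrink differences of dim genes, and for arrays the number of livers limits the precision.

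A single gene symbol stood beside 21780 probe sets, several beside 1605 and none beside 5430. Symbols of 21689 were matched by gene ID to a RefSeq table (GRCm38.p6), used for names and gene order, since its build differs from mm8. For 998 genes with several probe sets the one with the highest mean over all livers was kept, which left 19935 genes. Log2 values were fitted with limma 3.58.1 in R 4.3.3, and p-values were adjusted over the 19935 genes by Benjamini-Hochberg (threshold 0.05). The fits were genotype alone, genotype with Dbp set, and 4 means (genotype by Dbp set) with the spread shared over 10 arrays. The Dbp sets lie above and below the widest gap in Dbp. The gene fit was tested on simulated data. Promoters were RefSeq windows aligned with Biopython 1.88.

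Members and gene lists were chosen with earlier results of these data known. Values per liver were given for the cluster members, for members with an unadjusted p below 0.05 for genotype, for the 3 with the highest mean log2 value of their probe sets (Trim14, Trim25 and Trim56), which does not rank transcript levels, for the 6 with the smallest p between Dbp sets and for any past the adjusted threshold. Trim8, Trim28, Trim38 and the other genes around Rrp8 were named after their values were seen. No 2 arrays held the same values. The alternatives were other normalizations, an offset of 16, a filter on dim genes, probe set means, other priors and weights, a replicate block, other windows and each liver left out.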

Additional observations from a re-analysis of the deposited data

How the results depend on the processing

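Trim12a and Trim30d stayed lower in NML-KO livers under every alternative of the genotype fits over all livers, with the Dbp set as a term and within each set: -0.97 to -0.61 and -1.01 to -0.65 over all livers, and -1.39 to -0.89 and -1.57 to -1.16 within Dbp-low livers. Within Dbp-high livers they ran from -1.03 to -0.0030 and from -0.38 to -0.028, so that both came near 0 without WT 2. Only the filter on dim genes gave them no value, since 33 of 58 members, and all of the cluster but Trim3 and Trim30a, had a mean below that of the median gene (6.22). That cut is not a measured background, which the table does not give, and Trim30d (mean 6.21) fell just under it with a WT mean of 6.61.

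In this section, counts of members under the alternatives carry no share of all genes, which was not counted for them. They therefore do not compare the family with other genes. Over all livers, the number of members with an unadjusted p below 0.05 was 4. It was 0 without dim genes, 2 with a trended and robust prior and 2 to 5 with 1 liver left out. There 0 to 1 genes passed the adjusted threshold with 1 liver left out, and the 1 gene was Rrp8, without NML-KO 4 (adjusted p = 0.0171 by limma). With the set as a term, that number of members was 1 without dim genes, 10 with array weights and 4 to 6 with 1 liver left out. In that fit 3 genes passed the adjusted threshold with array weights, and 0 to 1 genes and 0 to 1 members did with 1 liver left out. Rrp8 was among the 3 (adjusted p = 0.0194 by limma) and was the 1 gene that passed without NML-KO 4 (0.0400). Within Dbp-high livers 3 members had an unadjusted p below 0.05 under quantile normalization and 3 without dim genes, and 5 to 13 with 1 liver left out. There 0 to 23 genes passed with 1 liver left out, 23 of them without WT 1. Within Dbp-low livers 1 gene passed without dim genes, 3 with the trended and robust prior and 1 with array weights. With 1 liver left out 0 to 24 did, 24 of them without NML-KO 5. Trim30d was the 1 member past the threshold under the trended prior (adjusted p = 0.0176 by limma), and 1 member had an unadjusted p below 0.05 without dim genes. For the difference between the sets, 1 member had such a p without dim genes and 3 to 10 with 1 liver left out, when 0 to 13 genes passed. Between Dbp sets, 1625 to 2557 genes passed with 1 liver left out, and 6 members had an unadjusted p below 0.05 without dim genes against 10 with them. The median difference of the cluster was -0.13 without dim genes, over 2 genes, and -0.095 to 0.034 with 1 liver left out. The filter leaves fewer genes to test, without Trim12a and Trim30d. Trim3 and Trim68 stayed in the test, and over all livers neither had an unadjusted p below 0.05 there. The cause of the shifts was not tested.

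Between Dbp sets, Trim12a (adjusted p = 0.0130), Trim12c (0.0021) and Trim14 (0.0226) passed only without WT 1, and Trim12c also with array weights (0.0174), while Trim2, Trim13, Trim56 and Trim68 passed in every alternative in which they were tested. Same-numbered livers had correlations of deviations from the genotype mean of 0.44, 0.26, -0.42, 0.35 and 0.54. Of 5 NML-KO livers, 1 correlated best with its own number. Only number 3, at -0.42, joins a Dbp-high liver (NML-KO) with a Dbp-low liver (WT). The values thus follow the Dbp sets and cannot decide whether the numbers pair the livers. A replicate block left 0 genes past the threshold, with 3 members at an unadjusted p below 0.05 over all livers and 4 with the set as a term.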

Other observations

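Some probe sets of the family carried several gene symbols and were left out above. The probe set shared by Trim5, Trim12c and Trim12a averaged 6.45 ± 0.16 in NML-KO livers and 6.60 ± 0.27 in WT livers on the log2 scale (SD, n = 5 each), a difference of -0.15 that was not tested. Its livers overlapped between the genotypes. Within Dbp-low livers its highest value in an NML-KO liver was 6.49 and its lowest in a WT liver 6.57, so that the genotypes did not overlap. Of all genes, 10.9% were lower without overlap in these livers. A probe set shared by Trim5 and Trim12c differed by -0.06, and 1 shared by Trim30b and the predicted gene Gm38525 by -0.11. Trim30e-ps1, a pseudogene of the Trim30 group, read 4.57 ± 0.04 in NML-KO livers and 4.47 ± 0.06 in WT livers (SD, n = 5 each).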
